A study of Mus musculus with 11 samples.

Results

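The genes described here are 9 genes of the liver endothelium, 6 that are active in endothelial cells of most vessels (Pecam1, Cdh5, Tie1, Tek, Kdr and Eng, called pan-endothelial below) and 3 that in liver are best known from the sinusoidal endothelium (Stab1, Stab2 and Fcgr2b). They were taken by name from a fixed list, which was chosen with earlier results of these data known. All 9 were among the 16704 genes that could be tested on the arrays. RNA of normal mouse liver was measured at embryonic day 14 (E14, 3 arrays), embryonic day 18 (E18, 3 arrays), postnatal day 5 (P5, 2 arrays, replicates 2 and 3) and postnatal day 56 (P56, 3 arrays), each array from a separate biological replicate. The labels give no genotype, strain or treatment for these samples, while the methods name C57BL/6 embryos as the source of fetal liver cells purified through E-cadherin. On every array the liver RNA carried the dye Cy5, and purchased RNA from adult mouse livers carried Cy3 as the reference, so each value is a log2 ratio to adult liver, and 0 is the level of the reference. The source field names liver at all 4 stages, but a second field names hepatoblasts at E14, immature hepatocytes at E18 and hepatocytes after birth, and whole liver as well as isolated cells appear in the methods. As a check of these labels, the mean of 12 erythroid genes, which mark the red cell lineage, stood at a mean log2 ratio of 3.04 to 3.25 at E14 and 3.08 to 3.10 at E18, and at -0.09 to -0.02 at P56. The fetal samples were thus far above adult liver in genes of red cell precursors, which are no markers of hepatoblasts or hepatocytes.

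Endothelial cells line every vessel. They are joined by the adhesion proteins VE-cadherin and PECAM-1, respond to VEGF through the receptor VEGFR2, to angiopoietins through TIE2 and its partner TIE1, and to ligands of the BMP and TGF-beta family through the co-receptor endoglin. In the liver, blood percolates through sinusoids, wide capillaries whose endothelium has open pores and no firm basement membrane, and whose cells clear waste proteins, hyaluronan and small immune complexes from blood through scavenger and Fc receptors. The fetal liver is also the main site of blood formation, and some genes of this group are not private to endothelium. Macrophages can carry Stab1, macrophages and B cells carry Fcgr2b, platelets and many leukocytes carry Pecam1, and blood stem cells carry Tek and Eng. In liver RNA, fewer cells of a type and less RNA per cell cannot be told apart.

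The probes set how each gene could be read. Each gene was represented by the brightest of its 60-base probes that passed the filter on dim signals. The sequences below are shown because they separate well measured from poorly measured genes. The Pecam1 and Tie1 probes stand for their genes, and the Stab1 probe is a second, dim probe whose values differed from those of the main probe. The Fcgr2b probe, headed second bright probe, is bright but the dimmest probe of that gene. They are given 5′ to 3′ in lower case, with no part set off in capitals, and each has at least 1 reading frame without a stop codon. The positions are those of the array files on mouse build mm7. The Pecam1 probe lies at chr11:106790116-106791969 on the minus strand and spans 1854 bases of genome with 60 bases, so it crosses an exon junction. The Tie1 probe lies at chr4:117847966-117848025 on the minus strand, the dim Stab1 probe at chr14:28589152-28589295 on the minus strand, again across a junction with a span of 144 bases, and the Fcgr2b probe at chr1:170942178-170942237 on the minus strand.
Pecam1: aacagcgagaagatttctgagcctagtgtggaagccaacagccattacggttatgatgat
Tie1: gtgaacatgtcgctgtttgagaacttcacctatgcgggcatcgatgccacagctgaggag
Stab1, dim probe: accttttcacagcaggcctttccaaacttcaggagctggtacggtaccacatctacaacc
Fcgr2b, second bright probe: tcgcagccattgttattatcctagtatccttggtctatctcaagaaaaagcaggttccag

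Signal over local background in the liver channel divided the genes into bright and dim. It ranged from 6.68 to 63.7 times background for Kdr, from 5.93 to 47.2 for Cdh5, from 4.50 to 32.5 for Stab1 and from 4.46 to 30.1 for Stab2. Eng (2.72 to 13.4) and Fcgr2b (2.72 to 19.1) were lower, and all 6 of these genes were well above background on all 11 arrays. The other 3 genes, the junction protein Pecam1 and the angiopoietin receptors Tie1 and Tek, were near the floor, at 1.18 to 2.85, 1.28 to 3.79 and 1.09 to 5.50 times background. Pecam1 was not well above background on any of the 3 arrays of P56, and Tie1 and Tek were on 1 of 3. The background correction adds a constant to both channels, which pulls the ratios of such dim probes toward 0, and which makes their differences smaller than those of bright probes by construction.

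**Figure D1:**
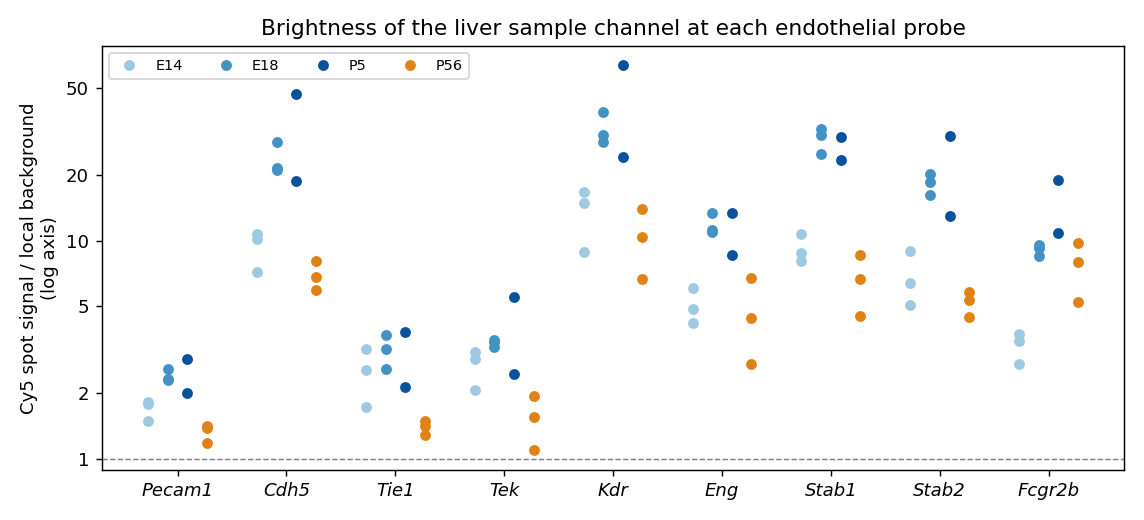
Liver channel signal divided by local background (log axis) at the probe that stands for each gene, 1 point per array, coloured by stage, with a dashed line at 1. Pecam1, Tie1 and Tek lie between 1.09 and 5.50 on every array, while Kdr reaches 63.7.

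Across the 4 stages, 6 of the 9 genes had their lowest mean at E14 (Cdh5, Kdr, Eng, Stab1, Stab2 and Fcgr2b) and the 3 dim genes had theirs at P56. The highest mean fell at P5 for 6 genes, at E18 for Stab1 and Tie1, and at P56 for Fcgr2b alone. The range of the stage means was widest for Fcgr2b, at 1.93 on the log2 scale. That of Pecam1, at 0.31, ends at P56 where no array was well above background, and with the scanner software's processed signals Pecam1 differed by -1.83 between P5 and P56. At P56 the means of all 9 genes lay below the adult reference, from -0.06 for Cdh5 to -0.89 for Eng, although both channels then held adult liver.

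**Figure D2:**
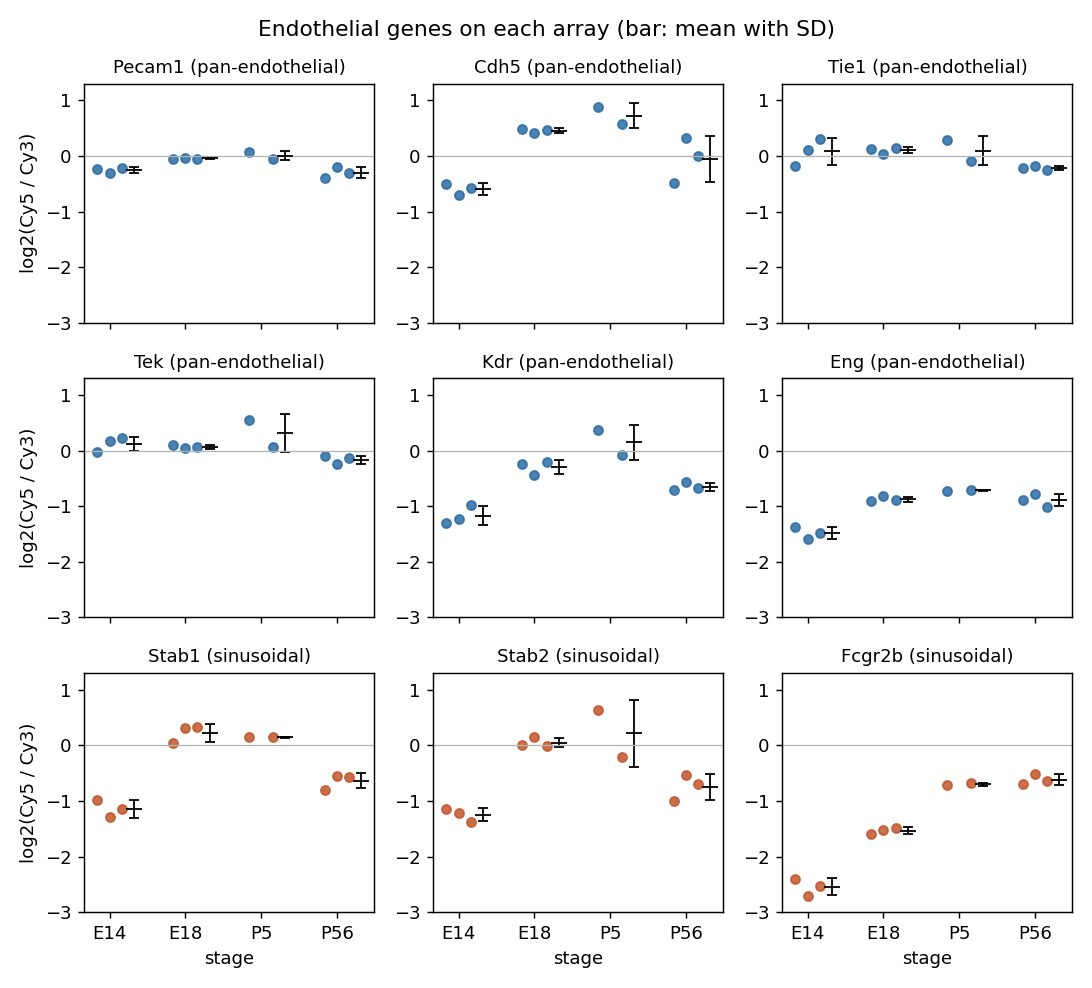
Log2 ratio of liver (Cy5) to adult reference (Cy3) for each gene, 1 coloured point per array, with the mean and SD of each stage in black (n = 3, and n = 2 at P5). Between E14 and E18 the points of Cdh5, Kdr, Eng, Stab1, Stab2 and Fcgr2b move up without overlap, and at P56 every gene but Fcgr2b lies below both P5 points.

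The first comparison asks how the vessel genes differ on the 2 sides of the change from hepatoblasts to immature hepatocytes. From E14 to E18, 6 of the 9 genes rose and none fell, against 24.5% of all genes tested that were higher and 22.9% that were lower in this comparison. All 3 sinusoidal genes were among them (Stab1 2.58-fold, Stab2 2.45-fold and Fcgr2b 2.02-fold), together with Cdh5 (2.07-fold), Kdr (1.84-fold) and Eng (1.53-fold). The median log2 difference was 0.88 over the 9 genes and -0.01 over all genes tested. The arrays of the 2 stages did not overlap, upward, for 7 genes, a pattern that 30.8% of all genes showed. Here and below, p-values come from 1 limma model of the 11 arrays and were adjusted by the Benjamini-Hochberg method over the 16704 genes.

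Stab1 encodes stabilin-1, a scavenger receptor of sinusoidal endothelium and of some macrophages. Its log2 ratio to the reference was -0.98, -1.29 and -1.15 on the arrays of E14, 0.04, 0.31 and 0.33 at E18, 0.16 and 0.14 at P5, and -0.79, -0.54 and -0.57 in the adult. Every array of E18 and P5 lay above the reference and every array of E14 and P56 below it. The difference was 1.37 on the log2 scale from E14 to E18 (SE 0.12, adjusted p = 2.08e-06), -0.07 from E18 to P5 (adjusted p = 0.754) and -0.79 from P5 to P56 (SE 0.13, adjusted p = 4.58e-04). The dim probe printed above moved by only 0.06 from E14 to E18, and it was well above background on 1 of the 3 arrays of E14. At P56 it went the other way from the main probe, and was higher by 0.14 than at P5 and by 0.18 than at E18. It was well above background on all arrays of E18 and P5 and on 2 of the 3 arrays of P56.

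Stab2 encodes stabilin-2, the hyaluronan scavenger receptor of sinusoids. It read -1.15, -1.21 and -1.37 at E14, 0.00, 0.14 and 0.00 at E18, 0.64 and -0.21 at P5, and -0.99, -0.54 and -0.70 in the adult. E14 and E18 were far apart, while the P5 arrays disagreed by 0.85, the widest gap of any of the 9 genes at that stage. Stab2 rose by 1.29 from E14 to E18 (SE 0.19, adjusted p = 1.46e-04) and was lower by 0.79 at P56 than at E18 (log2 difference -0.79, SE 0.19, adjusted p = 0.00285).

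Fcgr2b encodes the inhibitory Fc receptor with which sinusoidal cells take up immune complexes. Its ratios were -2.40, -2.71 and -2.52 at E14, -1.59, -1.51 and -1.49 at E18, -0.71 and -0.68 at P5, and -0.70, -0.51 and -0.64 in the adult. The gene climbed in 2 steps, with no overlap between E14, E18 and the postnatal arrays. It rose by 1.01 from E14 to E18 (SE 0.10, adjusted p = 6.37e-06) and by 0.83 from E18 to P5 (SE 0.11, adjusted p = 6.22e-04). From P5 to P56 the difference was 0.08, with a 95% interval from -0.16 to 0.32, but with median centring it was -0.82 (adjusted p = 3.65e-04), a fall. All 3 Fcgr2b probes, at separate positions of the transcript, were higher at E18 than at E14, by 1.01, 1.38 and 0.71. The probe printed above, the dimmest of them, was higher at P56 than at E18 by 1.11. The other probes read 1.18 and, for the one that stands for the gene, 0.92.

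Cdh5 encodes VE-cadherin, the adhesion protein of endothelial junctions. Its log2 ratios were -0.50, -0.70 and -0.58 at E14, 0.49, 0.41 and 0.46 at E18, 0.88 and 0.57 at P5, and -0.49, 0.33 and -0.01 in the adult. E14 and E18 were tight groups, and the arrays of P56 were spread over 0.81 (SD 0.41, n = 3). Cdh5 rose by 1.05 from E14 to E18 (SE 0.17, adjusted p = 3.40e-04), and the dimmer of its 2 probes read 0.36 for the same difference. Pecam1, the other junction gene, read -0.24, -0.31 and -0.21 at E14 and -0.06, -0.03 and -0.05 at E18. The arrays did not overlap, but the difference of 0.21 (SE 0.09) did not pass the threshold in the adjusted test (adjusted p = 0.0632). It passed in 8 of 20 alternatives, with values up to 0.752 with the scanner software's processed signals (adjusted p = 0.0068).

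Kdr encodes VEGFR2, the main signalling receptor for VEGF-A. Its ratios were -1.30, -1.23 and -0.98 at E14, -0.23, -0.43 and -0.20 at E18, 0.37 and -0.07 at P5, and -0.71, -0.57 and -0.68 in the adult. Every array of E18 stood above every array of E14, and the P5 arrays above those of E18. Kdr rose by 0.88 from E14 to E18 (SE 0.13, adjusted p = 1.75e-04), but in the gene table that the authors normalized and averaged over probes the difference was 0.28 (adjusted p = 0.367). The second Kdr probe, which was not well above background on any array, read -0.02.

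Eng encodes endoglin, the co-receptor for BMP9 and TGF-beta. It read -1.38, -1.58 and -1.48 at E14, -0.91, -0.82 and -0.88 at E18, -0.72 and -0.71 at P5, and -0.89, -0.79 and -1.0 in the adult. After the rise of 0.61 from E14 to E18 (SE 0.09, adjusted p = 1.99e-04) no later step passed the threshold in the reported fit, and the difference between P56 and E18 was -0.02 with a 95% interval from -0.22 to 0.18. Median centring gave falls at P56, by 0.90 from E18 (adjusted p = 6.31e-05) and by 1.08 from P5 (adjusted p = 5.84e-05). Eng also had the most variable reference channel of the 9 genes (SD of log2 Cy3 0.15 over 11 arrays), in which E18 was 0.23 above E14.

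For the angiopoietin receptors no difference between the fetal stages was detected. Tek, which encodes TIE2, read -0.02, 0.17 and 0.23 at E14 and 0.11, 0.05 and 0.06 at E18, and its difference was -0.05 with a 95% interval from -0.32 to 0.21. Tie1, its orphan partner, read -0.18, 0.10 and 0.31 at E14 and 0.12, 0.04 and 0.15 at E18, a difference of 0.02 with a 95% interval from -0.26 to 0.31. In both genes the E18 arrays fell inside the range of E14. These probes were 1.72 to 3.68 times background at these stages, where the offset makes differences smaller by construction. Their intervals thus cannot be set against the rises of the bright genes Cdh5 and Kdr. With the scanner software's processed signals Tie1 differed by 0.17 and Tek by -0.06. A second, dimmer Tek probe that passed the filter read 0.13.

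**Figure D3:**
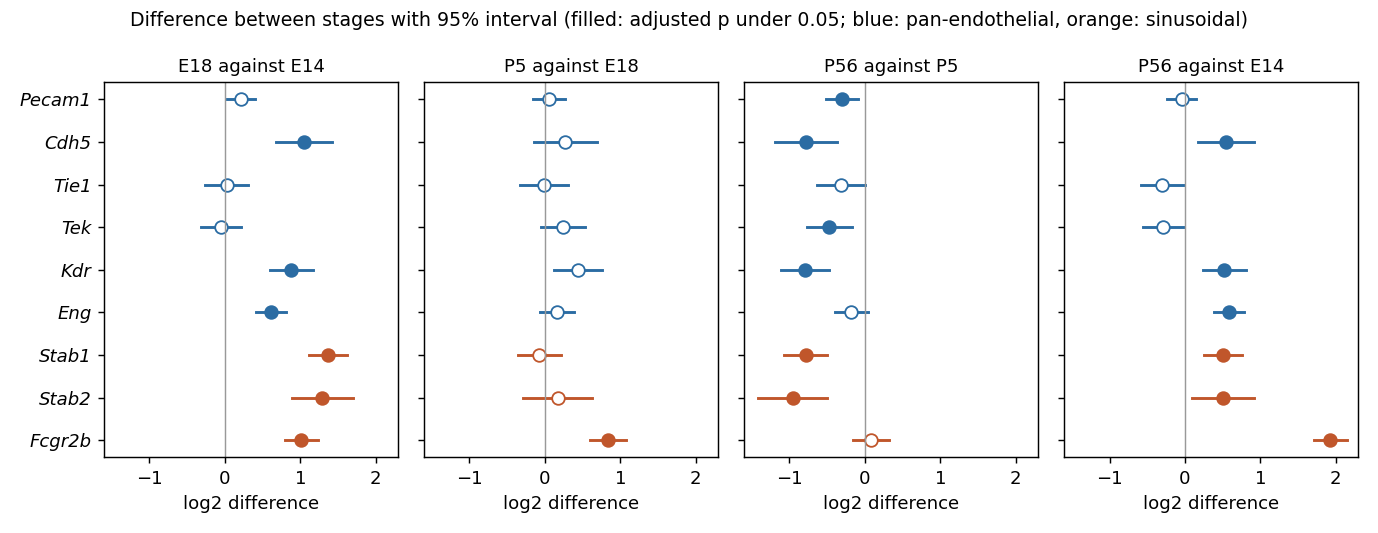
Log2 difference between stages for each gene with its 95% interval, in 4 comparisons (blue, pan-endothelial; orange, sinusoidal; filled, adjusted p under 0.05 by limma). Neighbouring panels share a stage, so their values are not independent, and the 4 comparisons call 6, 1, 6 and 6 genes.

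At the next step, from E18 to P5, 1 of the 9 genes rose (Fcgr2b) and none fell, where 7.31% of all genes were higher and 6.38% lower. The remaining 8 genes had differences from -0.07 (Stab1) to 0.44 (Kdr, adjusted p = 0.0685), and the arrays did not overlap, upward, for 4 genes (Cdh5, Kdr, Eng and Fcgr2b), as for 22.5% of all genes. The P5 arrays differed from each other. Replicate 2 stood above replicate 3 for 7 of the 9 genes, by up to 0.85 for Stab2, and without replicate 3 the count of genes that rose was 2, with Kdr added at 0.66 (adjusted p = 0.0288). P5 is then a lone array, assumed to vary like the arrays of the other stages.

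From P5 to P56, 6 of the 9 genes fell and none rose, where 24.7% of all genes were lower and 21.0% higher. They were Stab2 (by 0.96 on the log2 scale, or 1.94-fold), Kdr (1.74-fold), Stab1 (1.73-fold), Cdh5 (1.72-fold), Tek (1.39-fold) and Pecam1. Pecam1 was 1.22-fold lower as measured in the liver channel, with no P56 array well above background. The adjusted p ran from 4.58e-04 for Stab1 to 0.0210 for Pecam1. The tested Tek probe was well above background on 1 of the 3 arrays of P56. Pecam1 and Tek thus passed the filter through the earlier stages, and their falls end near the floor. The second Tek probe, which is dimmer but passed the filter, went the other way, by 0.18. It was well above background on 2 of the 3 arrays of P56. Every array of P56 lay below both arrays of P5 for 8 of the genes, as for 32.8% of all genes, and Fcgr2b was the exception. The differences of Tie1 (-0.31, adjusted p = 0.10) and Eng (-0.18, adjusted p = 0.177) did not pass the threshold. In the authors' gene table Stab1 (-0.39, adjusted p = 0.322), Kdr (-0.39, adjusted p = 0.264) and Tek (-0.21, adjusted p = 0.59) did not pass either. This count rests on replicate 2 of P5, without which 3 genes fell (Kdr, Stab1 and Stab2), again with a lone P5 array whose spread is taken from the other stages. Replicate 3 of P5 was read in the same scan as the arrays of P56. Against this array alone the mean at P56 was lower by 0.78 for Stab1, 0.63 for Cdh5, 0.58 for Kdr and 0.53 for Stab2. It was lower by 0.25 for Pecam1, 0.23 for Tek, 0.19 for Eng and 0.13 for Tie1, and higher by 0.06 for Fcgr2b. With the scan as a fixed block the test called 3 genes lower, and the methods' t-test called 0 after adjustment and 3 at an unadjusted p under 0.05.

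Set against E18, the adult liver had 6 genes lower and 1 higher, where 33.5% of all genes were lower and 31.3% higher. Stab1 fell by 0.86 on the log2 scale (SE 0.12, adjusted p = 4.78e-05) and Stab2 by 0.79, while the third sinusoidal gene, Fcgr2b, rose by 0.92 (SE 0.10, adjusted p = 7.89e-06). The Fcgr2b call was lost with median centring (0.0213, adjusted p = 0.90), and the Stab1 call in the authors' gene table (-0.21, adjusted p = 0.515). Cdh5 fell by 0.51 (adjusted p = 0.0197), Kdr by 0.36 (adjusted p = 0.0282), Tie1 by 0.32 (adjusted p = 0.0478) and Pecam1 by 0.26 (adjusted p = 0.0204). The calls of Cdh5 and Kdr were lost with no offset in the background correction (adjusted p = 0.0747 and 0.0759) and with the Cy5 channel alone (adjusted p = 0.0536 and 0.0564). The Tie1 call was lost in 10 of 19 alternatives, among them the authors' gene table (-0.87, adjusted p = 0.079). Its probe was well above background on 1 of the 3 arrays of P56. As measured in the liver channel, Pecam1 was 1.17-fold higher at E18, with no P56 array well above background. Stab1, Stab2 and Fcgr2b passed the threshold with any 1 array of these stages left out, and the count of 7 calls fell to 3 without replicate 1 of P56 and to 4 without replicate 1 or replicate 3 of E18. It was also 3 with the scan as a random block and 4 in the authors' gene table, where Kdr stood at 0.0564. No scan held arrays of both stages, so scan and stage cannot be told apart here. The same holds for P5 against E18 and for P56 against E14.

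The ends of the series, P56 against E14, differed upward for 6 of the 9 genes and downward for none, where 36.2% of all genes were higher and 34.7% lower. The downward count depends on how dim probes are corrected, on the scaling and on single arrays. With an array left out, 4 to 8 genes were called in either direction, and Pecam1, Tie1 and Tek were below 0 in every setting. With the scanner software's processed signals Pecam1 (-1.15), Tie1 (-1.45) and Tek (-1.51) were called lower, the same 3 genes were called lower with the Cy5 channel alone, and Tie1 and Tek with no offset in the background correction. The second Tek probe, which was not tested, read 0.28 with the reported processing. Fcgr2b rose by 1.93 on the log2 scale, or 3.80-fold (SE 0.10, adjusted p = 8.55e-09), and Eng, Cdh5, Kdr, Stab1 and Stab2 by 0.50 to 0.59. The Fcgr2b rise kept its direction under every scaling tried, at 1.05 with plain median centring, but the other 5 turned to between -0.28 (Eng) and -0.38 (Stab2) there. With this centring limma called Cdh5 (-0.34, adjusted p = 0.0156) and Stab1 (-0.38, adjusted p = 0.0253) lower, and also Tie1 and Tek. That centring moved the median of all genes at P56 against E14 from 0.04 to -0.33. Relative to this median the 5 genes stood between -0.06 and 0.05, and Fcgr2b at 1.38. Stab2 no longer passed the threshold without replicate 2 or 3 of E14 or replicate 2 or 3 of P56, and Cdh5 without replicate 2 of either stage. In the authors' gene table the calls of Stab2 (0.65, adjusted p = 0.0747), Kdr (0.34, adjusted p = 0.208) and Cdh5 (0.078, adjusted p = 0.776) were lost.

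The scaling matters for all comparisons with P56. Of the genes called between P56 and E18, 48.3% were higher, and 15% with median centring, with the median of all genes at -0.42. Against P5 these shares were 46.0% and 6.87%, and against E14 51.0% and 22.9%. Between E18 and E14, 51.8% of the calls were higher, 62.6% with no offset in the background correction and 63.9% in the authors' gene table. Between P5 and E18 the share was 53.4%, and 72.9% in that table. In that first comparison, Cdh5, Kdr, Eng, Stab1, Stab2 and Fcgr2b were higher at E18 under every scaling and filter tried, and Kdr alone lost its call, in the authors' table.

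The 2 classes stood furthest apart at E14. The mean log2 ratio of the 3 sinusoidal genes was -1.51, -1.74 and -1.68 on the arrays of E14, -0.52, -0.35 and -0.39 at E18, 0.03 and -0.25 at P5, and -0.83, -0.53 and -0.64 in the adult. The 6 pan-endothelial genes had means of -0.60, -0.59 and -0.45, then -0.08, -0.13 and -0.08, then 0.24 and -0.05, and last -0.47, -0.28 and -0.40. The sinusoidal mean minus the pan-endothelial mean was -1.23 to -0.91 at E14 and -0.44 to -0.20 on the other 8 arrays. Both are relative to the adult reference. Single genes did not follow this gap, since Eng (-1.48) and Kdr (-1.17) stood beside Stab1 (-1.14) and Stab2 (-1.24) at E14, with Fcgr2b lowest (-2.54). The pan-endothelial mean joins unlike genes. For Cdh5, Kdr and Eng it was -1.17 to -1.01 at E14 and -0.28 to -0.21 at E18, while for the dim genes Pecam1, Tie1 and Tek it was -0.14 to 0.11 and 0.02 to 0.06. From E14 to E18 the mean step of Cdh5, Kdr and Eng thus lay between those of the dim and the sinusoidal genes. The offset makes the step of the dim genes smaller by construction. Singly, Cdh5 rose by 1.05 and the sinusoidal gene Fcgr2b by 1.01, and the difference between the classes was not tested.

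**Figure D4:**
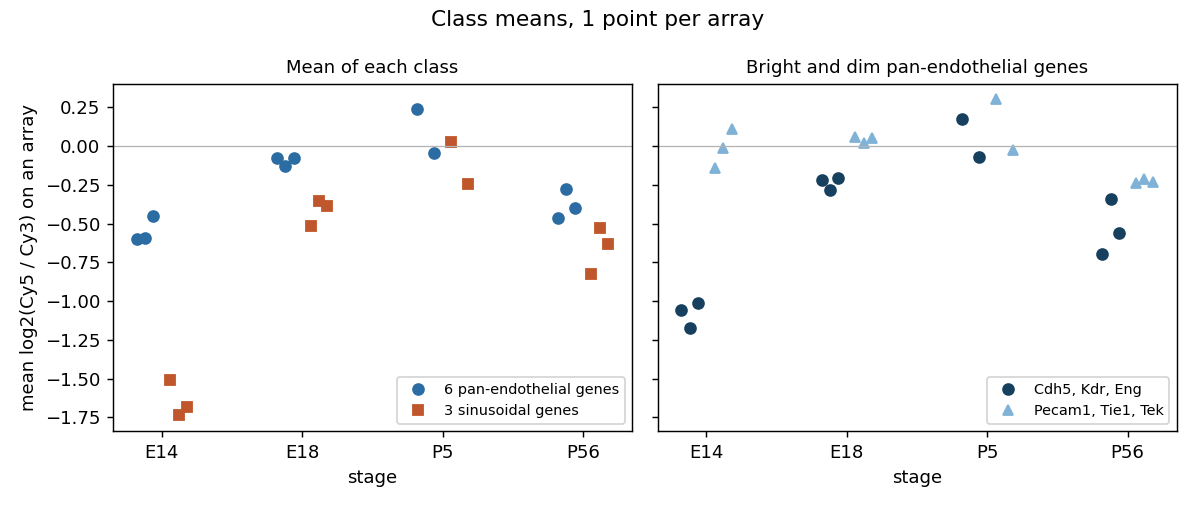
Mean log2 ratio to adult liver on each array, for the 6 pan-endothelial and the 3 sinusoidal genes (left) and for the bright and the dim pan-endothelial genes (right), 1 point per array. At E14 the sinusoidal mean lies between -1.74 and -1.51 and the mean of Pecam1, Tie1 and Tek between -0.14 and 0.11.

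The sinusoidal genes did not keep their proportions either. The ratio of Fcgr2b, minus that of Stab2, was -1.49 to -1.15 at E14, -1.66 to -1.48 at E18, -1.36 and -0.47 at P5, and 0.03 to 0.30 in the adult. Stab1 minus Stab2 stayed between -0.49 and 0.35 on the 11 arrays. Relative to adult liver, the Fc receptor trailed the stabilins before birth and drew level with them by P56.

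Scan 1 held the 3 arrays of E14 and replicate 1 of E18, which gives a comparison of fetal stages free of scan. In this scan the single E18 array stood above the mean of E14 by 1.25 for Stab2, 1.18 for Stab1, 1.09 for Cdh5, 0.95 for Fcgr2b and 0.94 for Kdr. The values were 0.57 for Eng, 0.20 for Pecam1, 0.04 for Tie1 and -0.02 for Tek. With the scan as a fixed block the same number of genes, 6, passed the threshold. Between replicate arrays, Pearson's r across probes was at least 0.987 at E14 and 0.969 at E18, 0.901 at P5 and as low as 0.827 at P56. Arrays of P56 had 16790 to 23079 of 43379 spots well above background in Cy5, and those of the other stages 22027 to 25718.

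Other endothelial genes were read from lists that were written for this purpose, with earlier results of these data known. Their counts stand beside shares over all genes of 24.5% higher and 22.9% lower from E14 to E18, and 31.3% and 33.5% from E18 to P56. Of 26 other pan-endothelial genes, 6 rose, 3 fell and 17 did not pass the test from E14 to E18 (median 0.16). The largest changes were those of Cd34, a sialomucin of endothelium and blood progenitors, which fell by 1.04 (adjusted p = 1.19e-04), of Mmrn2, an endothelial matrix protein, which rose by 1.01 (adjusted p = 2.79e-05), and of Cd93, a receptor of endothelium and myeloid cells, which rose by 0.75 (adjusted p = 8.48e-04) but by 0.33 in the authors' gene table (adjusted p = 0.31). From E18 to P56, 3 of the 26 rose and 13 fell (median -0.33), led by Cd93 (-1.79), Cd34 (-1.45) and Vwf, the von Willebrand factor of larger vessels and platelets (-1.41). With median centring 1 rose and 23 fell (median -1.0), and the direction of these named genes did not change.

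Of 14 other genes linked to the sinusoids, 7 rose from E14 to E18, none fell and 7 did not pass the test (median 0.42). Clec4g, a lectin of sinusoidal endothelium, rose by 1.76 (adjusted p = 3.60e-06), Mrc1, the mannose receptor of sinusoidal endothelium and macrophages, by 1.47 (adjusted p = 1.29e-05), and Gpr182, an atypical chemokine receptor of sinusoids, by 0.91 (adjusted p = 1.90e-04). Between E18 and P56 this list split into 4 genes that rose, 3 that fell and 7 that did not pass. Clec4g rose again by 1.68 (adjusted p = 2.86e-06) and Wnt2, a Wnt ligand of liver endothelium, by 1.25 (adjusted p = 1.26e-04), whereas Lyve1, a hyaluronan receptor of sinusoids and lymphatics, fell by 1.88 (adjusted p = 4.93e-06). Clec4g was thus higher in the adult than at E18, as Fcgr2b was, and Lyve1 lower, as the stabilins were. These directions held under every scaling tried. Calls were lost for Clec4g in the authors' gene table (0.66, adjusted p = 0.129, and 0.70, adjusted p = 0.145, from E14 to E18) and for Wnt2 with median centring (0.34, adjusted p = 0.116). The counts for the list became 1 that rose and 6 that fell with median centring (median -0.21).

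Of 20 ligands and partners of the receptors, 18 could be tested, and Angpt1 and Bmp10 did not pass the filter on dim signals. From E14 to E18, 7 rose, 2 fell and 9 did not pass (median 0.21). Ptprb, the endothelial phosphatase that acts on TIE2 and VE-cadherin, rose by 1.86 (adjusted p = 1.61e-06; 0.66 with adjusted p = 0.412 in the authors' gene table), Flt1, the VEGF receptor that acts largely as a decoy, by 1.66 (adjusted p = 4.01e-06) and Vegfa, the VEGF ligand itself, by 0.94 (adjusted p = 1.12e-05). From E18 to P56, 4 rose, 6 fell and 8 did not pass, while median centring gave 0 that rose and 14 that fell. Flt1 fell by 1.25 (adjusted p = 2.17e-05), as did Id1, a target of BMP signalling, by 1.25 (adjusted p = 9.14e-04), and Pgf, a ligand of Flt1, rose by 0.98 (adjusted p = 0.00226) but stood at 0.0695 with median centring (adjusted p = 0.851).

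Genes of other cell types moved over the same stages. All 14 macrophage genes rose from E14 to E18 (median 1.25), with Cd5l at 2.59, Clec4f at 2.56 and Marco at 1.77, and their mean level went from -2.86 to -2.50 at E14 to -1.5 to -1.23 at E18, -1.18 to -1.0 at P5 and -2.20 to -1.56 at P56. Of 8 B cell genes, 7 rose (median 1.1) and none fell, and of 12 hepatocyte genes, 11 rose (median 3.06). These values stand beside the rises of Fcgr2b and Stab1, which macrophages share, and their part in those rises was not tested. From E18 to P56, 9 of 14 macrophage genes and 5 of 8 B cell genes fell beside the rise of Fcgr2b, and with median centring 13 and 7 fell while Fcgr2b stood at 0.0213 (adjusted p = 0.90). In the reported fit only Cd163 was higher among the macrophage genes, by 2.01.

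Over the same interval all 10 megakaryocyte genes, all 12 erythroid genes, all 6 stem and progenitor genes and all 10 cell cycle genes fell from E18 to P56, with medians of -1.68, -3.18, -1.15 and -3.0. Their part in the lower values of Pecam1, Tie1 and Vwf, genes that blood cells share, was not tested. From E14 to E18, the interval in which most of the 9 genes rose, 0 of 10 megakaryocyte genes and 1 of 12 erythroid genes rose. With the Cy5 channel alone 7 erythroid, 6 megakaryocyte and 8 of the cell cycle genes were lower at E18 than at E14, where the reported fit had 1, 2 and 2. Of 14 stellate cell and fibroblast genes, 5 rose and 5 fell between E14 and E18, and 3 rose and 8 fell between E18 and P56.

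**Figure D5:**
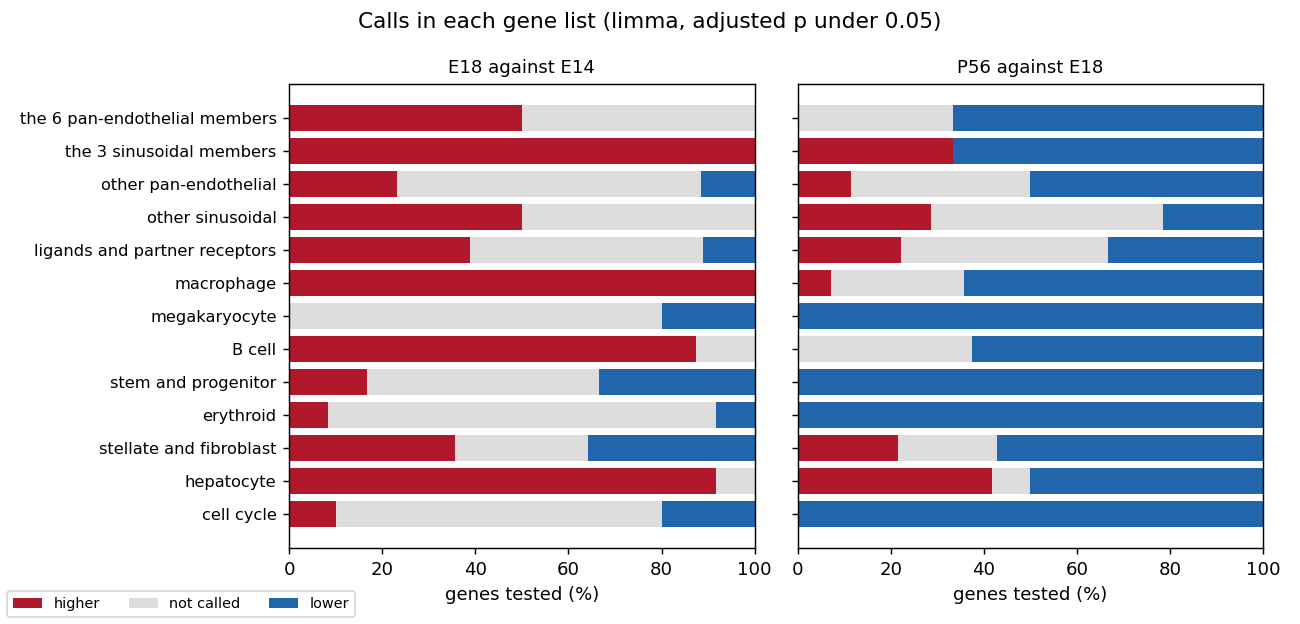
Share of the tested genes of each list that was higher (red), lower (blue) or not called (grey), for E18 against E14 and P56 against E18 (limma, adjusted p under 0.05). The 3 sinusoidal genes and the 14 macrophage genes are red throughout on the left, and the erythroid, megakaryocyte, stem and progenitor and cell cycle genes are blue throughout on the right.

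Genes whose course over the 11 arrays was most like the mean z-score of each class were ranked by Pearson's r, a likeness that rests on the 4 stages and carries no p. For the pan-endothelial genes they were TC1417120 (r 0.976), Qk (0.968), Tnfrsf13c (0.961), Cdgap (0.961) and Copg2as2 (0.956). For the sinusoidal genes they were C730009D12 (0.991), Mylip (0.988), A230097K15Rik (0.986), Tm4sf4 (0.986) and AK041732 (0.985). None of the 10 belongs to the endothelial lists.

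The promoters of 7 of the 9 genes were found in the RefSeq table for GRCm38.p6 (all but Pecam1 and Cdh5), a build other than that of the array files. The 250 bases before each gene start were searched on both strands for short motifs of the ETS, GATA and SOX factors, and no matches of different motifs overlapped. The ETS motif was the run of letters GGAAGT, whose core many factors of this family in endothelium and blood recognise. The 4 promoters below are of 2 receptors and 2 sinusoidal genes that rose together from E14 to E18. They are shown 5′ to 3′ on the strand of the gene. The ETS motif or its reverse complement is in capitals, and Stab2 holds no match. Kdr is at chr5:75978456-75978705 on the minus strand, Eng at chr2:32646345-32646594 on the plus strand, Stab2 at chr10:87007943-87008192 on the minus strand and Fcgr2b at chr1:170976072-170976321 on the minus strand.
Kdr: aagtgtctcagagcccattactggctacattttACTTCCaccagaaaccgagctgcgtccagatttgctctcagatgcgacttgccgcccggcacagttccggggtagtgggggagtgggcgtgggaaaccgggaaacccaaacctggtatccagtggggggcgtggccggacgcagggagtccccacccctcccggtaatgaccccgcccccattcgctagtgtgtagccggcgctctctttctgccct
Eng: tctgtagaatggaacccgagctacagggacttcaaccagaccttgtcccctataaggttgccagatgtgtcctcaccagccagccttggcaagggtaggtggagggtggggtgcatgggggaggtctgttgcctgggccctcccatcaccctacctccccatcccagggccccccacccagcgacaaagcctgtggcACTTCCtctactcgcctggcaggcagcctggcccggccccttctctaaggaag
Stab2: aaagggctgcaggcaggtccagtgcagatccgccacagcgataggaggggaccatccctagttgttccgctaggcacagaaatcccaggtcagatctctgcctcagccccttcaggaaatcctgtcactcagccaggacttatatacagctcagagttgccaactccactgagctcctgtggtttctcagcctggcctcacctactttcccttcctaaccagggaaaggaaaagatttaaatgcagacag
Fcgr2b: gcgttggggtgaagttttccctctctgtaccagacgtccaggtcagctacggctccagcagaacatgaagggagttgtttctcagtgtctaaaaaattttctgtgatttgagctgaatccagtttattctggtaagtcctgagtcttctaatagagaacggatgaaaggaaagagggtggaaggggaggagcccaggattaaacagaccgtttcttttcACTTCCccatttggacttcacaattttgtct
The ETS motif was present in 4 of the 7 promoters (Tie1, Kdr, Eng and Fcgr2b) and in 19.7% of all 32851 promoters of this length. The matches begin 217, 53 and 31 bases before the start of Kdr, Eng and Fcgr2b. For the GATA factors the letters searched were AGATAA, present in 0 of the 7 promoters and in 9.99% of all promoters of this length. For the SOX factors the letters searched were AACAAT, present in 1 (Tek) and in 9.42% of all. The promoters of Stab1 and Stab2 hold none of the 3 motifs in this window. A part of these motifs in the levels of the genes was not tested.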

How the data were processed

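RNA of normal mouse liver was hybridised to 11 Agilent 4x44k arrays with 2 colours. The deposited files hold spot intensity values for Cy5 and Cy3 with the local background, written by Agilent Feature Extraction 9.5.1.1 with no normalization between arrays, on genome build mm7. Their second deposited table, of log2 ratios after lowess and averaging per gene, served here as an alternative, and limma is the tool that the labels name for their processing.

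Control spots (1639) and outlier spots (177 to 356 on an array) were removed. Background was corrected in both channels by normexp (offset 50), and the log2 ratio of Cy5 to Cy3 was normalized by loess, array by array. Probes entered the tests if every array of some stage had them well above background in Cy5 and no stage missed more than 1 array. Each gene was read from its brightest probe. This left 16704 genes, of which 263 lacked a value on an array, and none of the 9 endothelial genes did. Genes carry the names given in the array files. The 4 stage means were compared by limma 3.58.1 (lmFit, then eBayes; R 4.3.3), and adjusted p-values (Benjamini-Hochberg) were held against 0.05. With 2 or 3 arrays per stage, array number limits how precise the values are. The fit was tested on simulated data. Plots were made in Python 3.11.15 (matplotlib 3.10.9).

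The text names all 9 genes, up to 3 genes of each other list with the largest changes past the threshold in E18 against E14 and in P56 against E18 (several lists of other cell types are given by counts alone), and the 5 genes most like each class. The genes and lists were chosen with earlier results of these data known. Alternatives were other background corrections, normalizations, filters and probe choices, the authors' table, blocks for replicate number and scan, only the 2 stages compared, the methods' t-test and each array left out.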

Additional observations from a re-analysis of the deposited data

How the results depend on the processing

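From E14 to E18 the count of 6 genes that rose was 6 or 7 under all alternatives and 6 with any array left out. Leaving out an array gave counts, of genes called in either direction, of 3 to 6 for P56 against E18 and 4 to 8 for P56 against E14. For P56 against P5 (6 in the report) the count was 3 in the authors' gene table, 3 with the scan as a fixed block, 3 with only the 2 stages compared and 0 with the methods' t-test, which also gave 0 for P5 against E18. These t-tests had few arrays, and 3 and 2 genes had an unadjusted p under 0.05. For P56 against E18 (7 in the report) it was 4 in the authors' gene table and 3 with the scan as a random block. Plain median centring turned 6 single differences, with P56 against E14 at -0.34 for Cdh5, -0.34 for Kdr, -0.28 for Eng, -0.38 for Stab1 and -0.38 for Stab2, and P56 against P5 at -0.82 for Fcgr2b. Of these, the values of Cdh5, Stab1 and Fcgr2b then passed the threshold. The authors' table turned Kdr in P56 against E18 to 0.0564. The cause was not tested. A fixed block for scan could be fitted only for E18 against E14 and P56 against P5.

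The reported fit did not pair arrays by replicate number. Arrays of the same number at different stages correlated in their deviations from the stage means between -0.30 and 0.19 (median -0.03). For arrays of different numbers the range was -0.46 to 0.46 (median 0.02). With so few arrays per stage these values cannot show whether the numbers pair the arrays. With the replicate block the counts were 6, 1, 5, 6 and 6 in the 5 comparisons, beside 6, 1, 6, 7 and 6 without it.

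Depth of signal limits Pecam1, Tie1 and Tek most, which the requirement of signal well above background on all arrays removes, leaving 6 genes to test.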
